A study of Rattus norvegicus with 24 samples.

Results

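The training effect in healthy rats was read from 12 of the 24 rats that the study sequenced. They were 6 rats of the control sedentary group (Sed) and 6 rats of the control exercised group (Ex). They were chosen by their sample labels, which name a saline-sedentary and a saline-exercised group. All 12 were male Wistar rats that received saline as the vehicle and no disease-inducing agent. Ex rats ran on a treadmill for 30 min on 5 days per week during 4 weeks, and Sed rats did not train. Rats of both groups were familiarized with the treadmill and ran a maximal exercise test before and after that period, so Sed muscle was untrained but had been exercised. The left medial gastrocnemius, a calf muscle made up mainly of fast-twitch fibers, was taken at least 48 h after the last maximal test, and poly-A RNA was sequenced, with 1 library per animal and no pooling. The other 12 rats received monocrotaline, which leads to right heart failure and cachexia, and were sedentary (CC-Sed, 6 rats) or trained in the same way (CC-Ex, 6 rats). They share no control animal with the healthy rats and are used below only for comparison.

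Endurance training is known to raise the oxidative capacity of skeletal muscle through more mitochondria, more capillaries and a greater use of fatty acids. Much of the transcriptional response follows each bout and is short-lived, led by immediate-early genes, Ppargc1a and Pdk4, and the proteins made in these bursts accumulate over weeks. A muscle sampled days after the last run is therefore likely to show mainly the resting state of a trained muscle. Whether effects of the last run had ended was not tested here.

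The 12 libraries held between 39684200 and 48865100 counts over 10851 genes, and total counts did not separate the groups (exact permutation test, two-sided p = 0.732). Every gene in the table had at least 10 counts in every rat, so genes that were off in any animal were not analysed here. Other genes were missing too, and the reason was not tested. Among them were Myh1 of the fast-fiber and muscle fiber marker lists and Gapdh of the glycolysis list. Cd36 of the fatty acid uptake list and Cox8a of the complex II to IV list were also missing. Markers of skeletal muscle fibers were abundant in all 12 rats, with a summed level from 156278 to 227071 CPM, the count scaled to library size, in Sed and from 137457 to 221380 CPM in Ex over 9 genes. Slow-fiber sarcomere genes spread far more widely. Their mean over 9 genes lay between 4.27 and 8.16 log2 CPM in Sed and between 3.99 and 9.41 log2 CPM in Ex, with Ex replicate 1, Sed replicate 3 and Sed replicate 5 at the low end and Ex replicate 4 at the high end. In whole muscle, fewer cells or fibers of a type and less RNA per cell cannot be told apart.

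Sed replicate 5 had more extreme values than the other Sed rats. It had the highest level of the 12 rats for 1763 genes and the lowest for 1453. Ex replicate 4 was similarly extreme, highest for 1508 genes and lowest for 1821, and Ex replicate 6 was highest for 1544. In Sed replicate 5, an untrained, saline-treated rat, several genes that muscle induces when its nerve supply or loading is lost were high. Myog, a transcription factor of muscle differentiation, reached 165 CPM, while the other 5 Sed rats had 11.0 to 55.3 CPM and the Ex rats 13.7 to 24.8 CPM. Gadd45a, a stress gene of denervated muscle, reached 107 CPM, against 11.2 to 45.7 CPM in the other Sed rats and 11.0 to 17.1 CPM in Ex. Runx1, another denervation-induced transcription factor, reached 31.6 CPM, against 3.15 to 8.28 CPM and 2.20 to 7.46 CPM. The same animal was highest of the 12 for Chrna1 and Musk, which encode the acetylcholine receptor alpha subunit and the kinase that organizes the neuromuscular junction, at 52.8 and 11.2 CPM. It was also highest for Ncam1 at 31.8 CPM, Hdac4 at 50.3 CPM, Fbxo32 at 320 CPM and Trim63 at 627 CPM, the last 2 being the atrophy ubiquitin ligases atrogin-1 and MuRF1. For Ncam1, Chrna1, Musk, Hdac4, Runx1, Fbxo32 and Trim63, the levels of the other 5 Sed rats overlapped those of the Ex rats. Chrna1, Musk, Ncam1 and Hdac4 were named after their values were seen. Of the denervation and neuromuscular junction list, 10 of 18 genes were highest and 2 lowest in this rat. Of the atrophy ubiquitin ligases and partners, 6 of 15 were highest and 2 lowest. Over all 10851 genes these numbers were 1763 and 1453. Of the proteasome genes, 31 of 32 were highest in this rat. It was the lowest rat for 26 of 33 complex I genes. Many values below moved when this animal was left out, and the fitted value without it is given beside the lists and genes that moved most.

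**Figure D1:**
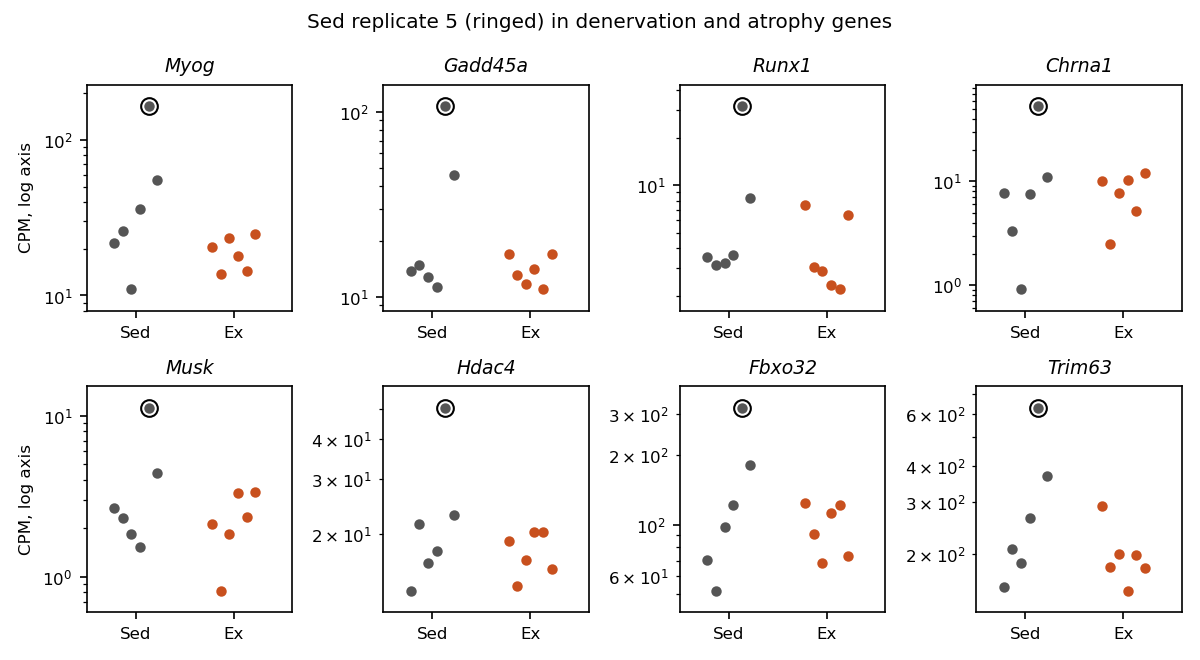
Levels of 8 denervation and atrophy genes in each rat, in CPM on a log axis that differs between panels; each point is 1 rat of the Sed (grey) or Ex (orange) group, and the ring marks Sed replicate 5. The ringed point is the highest in all 8 panels, as for Myog at 165 CPM, and Sed replicate 6 is the next Sed rat in each of them.

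Between trained and sedentary healthy rats, no single gene could be called as changed. With the edgeR quasi-likelihood test, 0 of 10851 genes (0%) had an adjusted p under 0.05, and the smallest adjusted p was 0.971. At an unadjusted p under 0.05 there were 379 genes, 3.49% of those tested, of which 201 (1.85%) were higher and 178 (1.64%) were lower in Ex. DESeq2 also called 0 genes, with 441 at an unadjusted p under 0.05, and limma-voom called 0, with 372. Without Sed replicate 5 edgeR called 0 genes, with 264 at an unadjusted p under 0.05, and without Sed replicate 1 it called 0, with 645.

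The lack of calls went with small fitted differences. Log2FC, given throughout as Ex against Sed, was under 0.5 in size for 97.4% of genes and reached 1 in size for 25 genes (0.230%). The 95% confidence interval of the Log2FC lay within -1 to 1 for 10196 genes (94.0%) and within -0.5 to 0.5 for 7751 genes (71.4%), so a change of the latter size was outside the interval for most genes but not for all. The median standard error was 0.12, and it was above 0.27 for the noisiest 10% of genes. The median Log2FC was 0.0061, with 52.1% of genes higher in Ex and 47.9% lower.

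**Figure D2:**
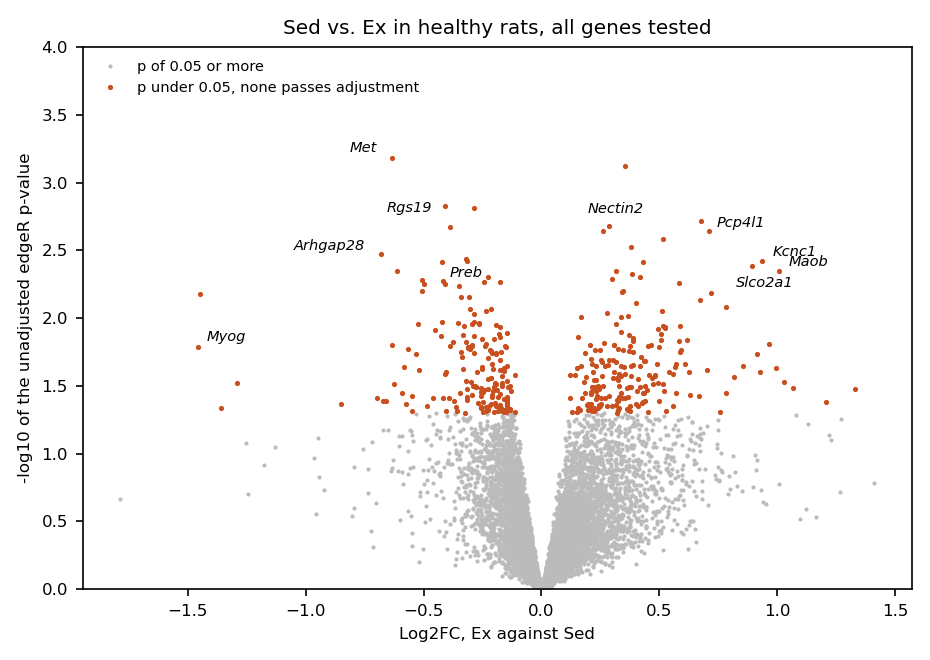
Log2FC of Ex against Sed (horizontal axis) and -log10 of the unadjusted edgeR p-value (vertical axis) for the 10851 genes tested, 6 rats per group; orange points are the 379 genes with an unadjusted p under 0.05, none of which passed the adjustment. Most points lie within 0.5 of zero, and Met has the smallest p-value.

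The genes named next are from the 15 with the smallest p-values on either side, 14 of those higher and all 15 of those lower in Ex. None passed the adjustment, and each had an adjusted p of 0.971 by edgeR, so their values are a description of the most separated genes. Log2FC values are followed by their standard error, with 6 rats per group. Among the 15 genes higher in Ex, Log2FC lay between 0.26 and 1.01 with a median of 0.42, and 13 of the 15 had all 6 Ex rats above the Sed median.

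Nectin2, a cell adhesion protein, lay without overlap, with 4.59 to 5.79 CPM in Sed (median 4.81) and 5.82 to 6.17 CPM in Ex (median 6.05), although Sed replicate 2 came close to the Ex rats. Its Log2FC was 0.28 ± 0.07. Nav2, a cytoskeletal protein of growing neurites, lay at 11.0 to 18.5 CPM in Sed (median 16.1) and 19.1 to 27.7 CPM in Ex (median 20.5), also without overlap, and its Log2FC was 0.51 ± 0.14. Slco2a1, the prostaglandin transporter, lay at 1.02 to 1.74 CPM in Sed (median 1.497) and 1.86 to 5.15 CPM in Ex (median 2.11), with Ex replicate 1 far above the other trained rats and a Log2FC of 0.89 ± 0.26.

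Several of the others encode proteins of signaling. Maob, monoamine oxidase B of the outer mitochondrial membrane, had the highest Log2FC of the 15 at 1.01 ± 0.29, with 0.824 to 1.83 CPM in Sed (median 0.985) and 1.18 to 3.77 CPM in Ex (median 2.25). Its groups overlapped through Sed replicate 6. Kcnc1, a fast voltage-gated potassium channel, lay at 5.08 to 11.0 CPM in Sed and 7.48 to 19.8 CPM in Ex (Log2FC 0.93 ± 0.26). Nr3c2, the mineralocorticoid receptor, lay at 5.24 to 8.58 CPM and 7.46 to 9.75 CPM (Log2FC 0.43 ± 0.12). These 3 genes overlapped between the groups. Pde7b, a cAMP phosphodiesterase, had a Log2FC of 0.38 ± 0.10, and Creb5, a transcription factor of the cAMP-responsive family, one of 0.68 ± 0.17. The remaining genes were Pcp4l1 (0.71), Zbtb42 (0.30), the Rab exchange factor Madd (0.32), the Golgi mannosidase Manea (0.38), the actin-binding protein Cnn2 (0.42) and LOC103691235 (0.26).

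Among the 15 genes lower in Ex, Log2FC lay between -0.68 and -0.18 with a median of -0.41, and all 15 had the 6 Ex rats below the Sed median. Met, the receptor for hepatocyte growth factor through which satellite cells are activated, had the smallest p-value of all genes. It lay between 18.2 and 30.9 CPM in Sed (median 24.7) and between 13.2 and 20.7 CPM in Ex (median 15.1). Ex replicate 5 alone reached into the Sed range, and Log2FC was -0.64 ± 0.14. Rgs19, which shortens G protein signaling, lay at 2.51 to 3.21 CPM in Sed (median 2.77) and 1.84 to 2.38 CPM in Ex (median 2.05), without overlap and with a Log2FC of -0.41 ± 0.10. Preb, which starts the budding of vesicles from the endoplasmic reticulum, also did not overlap, at 47.4 to 51.9 CPM in Sed and 39.7 to 46.7 CPM in Ex. Its Log2FC of -0.18 ± 0.05 was the smallest in size of the 15.

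Tst, a mitochondrial sulfurtransferase, lay at 34.5 to 50.6 CPM in Sed (median 42.8) and 28.8 to 38.5 CPM in Ex (median 31.4), with Ex replicate 1 highest among the trained rats and a Log2FC of -0.39 ± 0.10. Asb5, an ankyrin repeat and SOCS box protein linked to muscle regeneration, lay at 63.5 to 106 CPM and 37.96 to 70.65 CPM (Log2FC -0.51 ± 0.15). Arhgap28, a GTPase-activating protein, had the largest difference of the 15 (Log2FC -0.68 ± 0.19), with Sed replicate 3 far above the other rats at 9.11 CPM. The remaining genes were Samd10 (-0.61), Ankrd24 (-0.42), Ppidl1 (-0.42), the abscission checkpoint protein Zfyve19 (-0.41), R3hcc1l (-0.32), Rdm1 (-0.32), the splicing factor Isy1 (-0.24), the transcription elongation protein Mllt1 (-0.23) and Hspbp1 (-0.28), a cofactor of the HSP70 chaperones. Leaving out Sed replicate 5 moved Met to -0.59 and Rgs19 to -0.37, and the sign of none of the 30 genes changed.

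**Figure D3:**
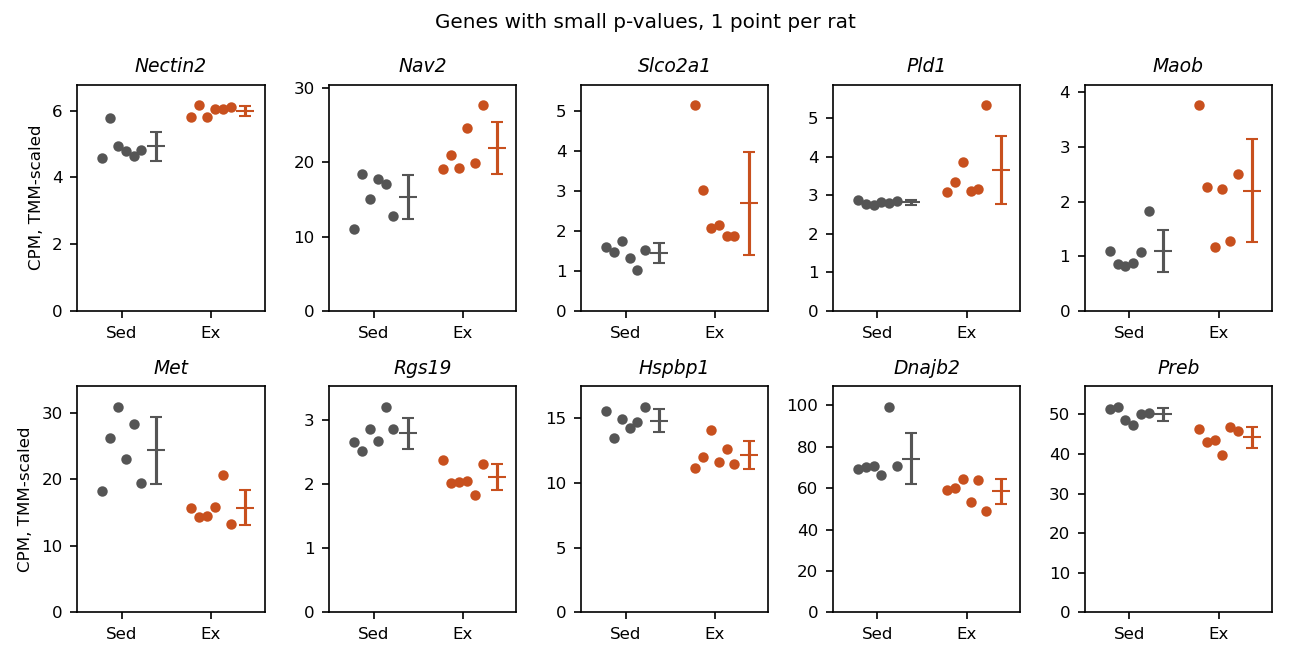
Levels of 10 genes in each rat, in TMM-scaled CPM on axes that start at 0; grey points are Sed and orange points Ex rats, and the bars beside them give the mean and standard deviation of the 6 rats. Nectin2, Nav2, Slco2a1, Pld1, Rgs19, Dnajb2 and Preb do not overlap between the groups, while Maob, Met and Hspbp1 do.

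Across the table, 17 genes (0.157%) had 6 Sed and 6 Ex values that did not overlap, 11 of them higher (0.101%) and 6 lower (0.0553%) in Ex. The following 3 of those outside the genes above were named after their values were seen. Dnajb2, a co-chaperone of HSP70, lay at 66.1 to 99.4 CPM in Sed and 49.1 to 64.7 CPM in Ex (Log2FC -0.35 ± 0.11), and Sed replicate 5 was the highest rat. Without that rat its Log2FC was -0.25. Uba3, a subunit of the enzyme that activates NEDD8, was separated by a narrow gap, with 44.74 CPM as the lowest Sed and 44.71 CPM as the highest Ex value (Log2FC -0.11 ± 0.04). Pld1, which releases phosphatidic acid, lay at 2.75 to 2.89 CPM in Sed and 3.10 to 5.34 CPM in Ex (Log2FC 0.38 ± 0.14, and 0.24 without Ex replicate 6).

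Chaperones formed the list with the most genes at a small p-value on the lower side. Of 26 heat shock and chaperone genes tested, 17 were lower and 9 higher in Ex, with a median Log2FC of -0.08 against 0.0061 over all genes, and none passed the adjustment. At an unadjusted p under 0.05 there were 5 genes lower and 1 higher, beside 1.64% and 1.85% of all genes. Hsp90aa1, the inducible cytosolic HSP90, lay between 92.6 and 231 CPM in Sed (median 124) and between 48.01 and 121 CPM in Ex (median 88.2). Its Log2FC was -0.63 ± 0.26, Sed replicate 5 was the highest and Ex replicate 4 the lowest rat, and the groups overlapped. Hspa8, the constitutive HSP70, lay at 109 to 158 CPM in Sed (median 132) and 73.5 to 132 CPM in Ex (median 107), with a Log2FC of -0.32 ± 0.14. Dnaja1, the HSP40 partner of these HSP70 proteins, had a Log2FC of -0.39 ± 0.17. Hsp90ab1, the constitutive HSP90, had a Log2FC of -0.24 ± 0.10, and Unc45b, the chaperone that folds myosin together with HSP90, one of -0.31 ± 0.11. Dnajb4, another HSP40, was the gene on the higher side (Log2FC 0.43 ± 0.19). Hsph1, the HSP110 exchange factor, followed at -0.40 ± 0.19 with an unadjusted edgeR p of 0.0530. Hsp90ab1, Hspa8, Dnaja1, Dnajb4 and Hsph1 were named after their values were seen.

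These values depended in part on 1 animal. Without Sed replicate 5 the list median was -0.06, 18 of 26 genes were lower in Ex, and 1 gene was lower at an unadjusted p under 0.05. Without Ex replicate 1 the median was -0.04. Without Sed replicate 5 Hsp90aa1 was at -0.41, Hsph1 at -0.25 and Dnaja1 at -0.31, whereas Hspa8 stayed at -0.30 and Unc45b at -0.31. The list mean per rat overlapped widely, at 6.34 to 6.80 log2 CPM in Sed and 6.27 to 6.86 log2 CPM in Ex.

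Chaperone genes are regulated by heat shock factor 1, which binds repeats of the letters GAA facing each other. The promoters of 20 of the 26 genes were found in the RefSeq-derived table (assembly GRCr8), and the 250 bases before the start were searched for GAANNTTC, which reads the same on both strands. The letters occurred in 10 of the 20 promoters, in 7.08% of 27457 promoters of the reference and in 4.53% of the 8699 promoters of genes in the count table. Of the 10 genes with the letters, 8 were lower in Ex, with a median Log2FC of -0.22, and of the 10 without them 5 were lower, with a median of -0.0087. This split was not repeated without Sed replicate 5, the highest rat for 11 of the 26 genes. Whether the letters relate to the training values was not tested. Among the lower chaperones named above, Hsp90ab1 and Unc45b did not carry the letters, and no promoter was found for Hsp90aa1. Hspb6 and Hspa9 carried them and were higher in Ex (Log2FC 0.26 and 0.07). The 3 sequences below are shown because these genes carry the letters and were among the lower chaperones. They are written in the direction of the gene and end at its start, and capitals mark the fixed letters of the element.
Hspa8, chr8:50080264-50080513, plus strand: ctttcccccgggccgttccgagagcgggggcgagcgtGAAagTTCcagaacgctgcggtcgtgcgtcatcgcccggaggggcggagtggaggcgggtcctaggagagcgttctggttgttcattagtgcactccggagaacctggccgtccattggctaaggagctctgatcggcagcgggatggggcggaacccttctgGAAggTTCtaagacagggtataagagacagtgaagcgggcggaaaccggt
Dnaja1, chr5:60638154-60638403, plus strand: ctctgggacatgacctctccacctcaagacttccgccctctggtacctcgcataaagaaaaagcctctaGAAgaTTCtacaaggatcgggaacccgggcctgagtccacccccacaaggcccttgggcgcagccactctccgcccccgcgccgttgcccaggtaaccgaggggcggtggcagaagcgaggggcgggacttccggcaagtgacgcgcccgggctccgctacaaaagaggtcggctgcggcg
Hsph1, chr12:10427118-10427367, plus strand: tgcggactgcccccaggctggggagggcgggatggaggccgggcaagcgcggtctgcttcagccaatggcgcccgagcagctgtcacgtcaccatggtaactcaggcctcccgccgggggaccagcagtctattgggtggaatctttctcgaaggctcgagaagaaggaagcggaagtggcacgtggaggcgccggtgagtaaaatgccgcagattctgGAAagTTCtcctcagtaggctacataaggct
Hspa8 held 2 copies, which began 213 and 50 bases before the start. Dnaja1 held 1 copy at 181 bases and Hsph1 1 copy at 31 bases. A match of letters is a description of the sequence, and no binding was measured here.

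The proteasome, which breaks down ubiquitin-marked proteins, was the longest list with a single direction. All 32 of its genes had a lower fitted mean in Ex, beside 47.9% of all genes, with a median Log2FC of -0.15 and a range from -0.26 to -0.04. None passed the adjustment, and 1 gene, Psma1 of the catalytic core, had an unadjusted p under 0.05. Psma1 lay at 62.0 to 92.8 CPM in Sed (median 69.45) and 59.6 to 65.0 CPM in Ex (median 61.8), with Sed replicate 5 far above all other rats and a Log2FC of -0.21 ± 0.09. Psmc2, an ATPase of the regulatory cap, had a Log2FC of -0.20 ± 0.10. Without Sed replicate 5 Psma1 was at -0.12 and Psmc2 at -0.11, and no proteasome gene had an unadjusted p under 0.05. Genes of 1 complex vary together, so the 32 genes are not independent of each other. The list mean per rat was 6.96 log2 CPM in Sed replicate 5 and 6.39 to 6.63 log2 CPM in the other Sed rats, against 6.28 to 6.61 log2 CPM in Ex. Without Sed replicate 5 the median was -0.07, with 31 of 32 genes lower, and the median standard error of these genes was 0.10 with all 12 rats.

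The atrophy ubiquitin ligases and their partners, which mark muscle proteins for the proteasome, were lower in Ex in 11 of 15 genes, with a median Log2FC of -0.08. Fbxo32 lay between 52.02 and 320 CPM in Sed (median 110) and between 68.3 and 124 CPM in Ex (median 102), with a Log2FC of -0.51 ± 0.37 that became -0.09 without Sed replicate 5. Trim63 had a Log2FC of -0.59 ± 0.31, and -0.25 without that rat. Autophagy and lysosome genes were evenly split, with 14 of 28 higher and a median of -0.01, and Gabarapl1, an adaptor of the autophagosome, had the smallest p-value of them (Log2FC -0.30 ± 0.14). Cytosolic ribosomal proteins (60 genes, median 0.01) and mitochondrial ribosomal proteins (68 genes, median -0.0022) lay at the median of all genes.

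**Figure D4:**
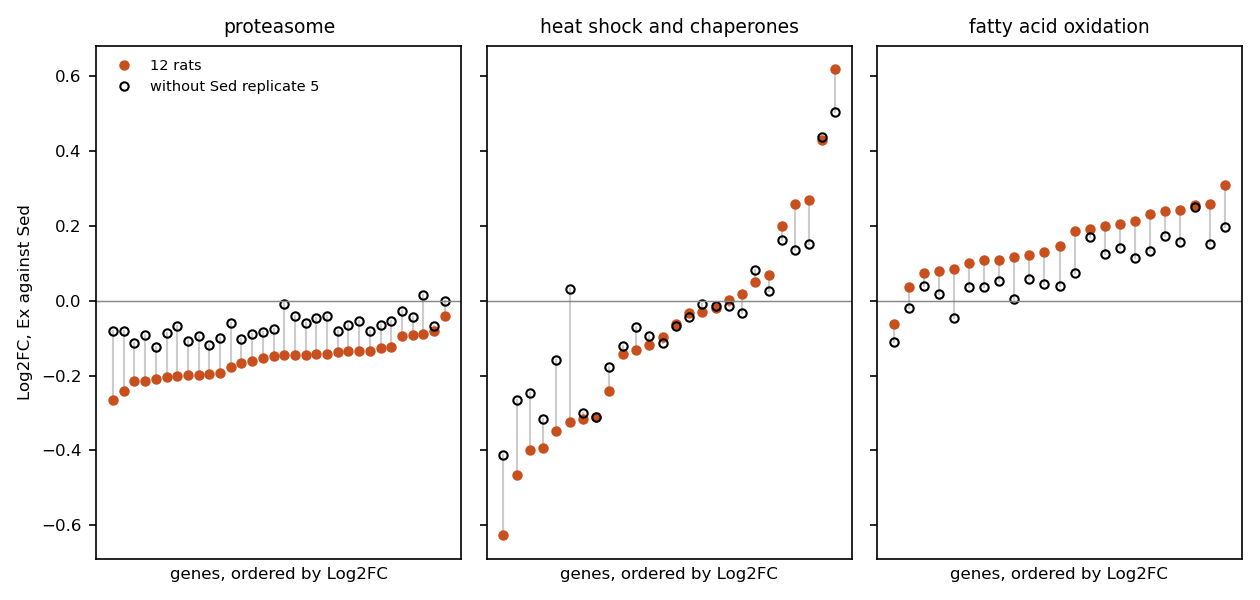
Log2FC of Ex against Sed for each gene of 3 lists, ordered from lowest to highest; filled orange points are the fit to 12 rats and open points the fit without Sed replicate 5, joined by a grey line per gene. All 32 proteasome genes lie below zero with 12 rats and move toward zero without that rat, 17 of 26 chaperone genes lie below zero, and 22 of 23 fatty acid oxidation genes lie above it.

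Respiratory chain, ATP synthase and citric acid cycle genes outside mitochondrial DNA were nearly all slightly higher in trained muscle, but this depended in part on Sed replicate 5. Without that rat 19 of 33 complex I and 17 of 23 complex II to IV genes were higher. The same fit had 9 of 15 ATP synthase and 15 of 19 citric acid cycle genes higher. Subunits encoded by mitochondrial DNA and regulators of mitochondrial biogenesis were split. With all healthy rats, no gene of these lists had an unadjusted p under 0.05. For the respiratory chain, 32 of 33 complex I genes (median Log2FC 0.08), 22 of 23 complex II to IV genes (0.10) and 14 of 15 ATP synthase genes (0.08) were higher in Ex, beside 52.1% of all genes. Cox6a1, a subunit of complex IV, had the smallest p-value among the complex II to IV genes, with 18.3 to 28.8 CPM in Sed (median 25.8) and 21.2 to 32.2 CPM in Ex (median 28.9). Its Log2FC was 0.21 ± 0.14, and 0.14 without Sed replicate 5, and the groups overlapped over most of their range. Of the citric acid cycle, 18 of 19 genes were higher (median 0.11). Cs, citrate synthase, which is often used as a measure of mitochondrial content, lay at 267 to 425 CPM in Sed and 285 to 452 CPM in Ex (Log2FC 0.13 ± 0.14, and 0.07 without Sed replicate 5). Of the 13 subunits encoded by mitochondrial DNA, 5 were higher and 8 lower, with a median of -0.0018. This split rested on single rats, since without Sed replicate 5 all 13 were lower (median -0.09), and the median was 0.10 without Ex replicate 1. Mt-nd2, of complex I, had a Log2FC of -0.10 ± 0.22, and of -0.22 without Sed replicate 5.

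Regulators of mitochondrial biogenesis were split, with 12 of 23 higher and a median of 0.0015. Ppargc1a, the coactivator that drives the program, lay between 10.8 and 22.1 CPM in Sed (median 17.6) and between 13.3 and 24.6 CPM in Ex (median 19.7), with Sed replicate 5 as the lowest rat and a Log2FC of 0.23 ± 0.18 that was 0.12 without it. Ppara, the nuclear receptor for fatty acids, had a Log2FC of 0.41 ± 0.24. Ucp3, the mitochondrial carrier that responds to fasting and fatty acids, spread over 20.1 to 346 CPM in Sed and 30.6 to 135 CPM in Ex (Log2FC -0.94 ± 0.61, and -0.55 without Sed replicate 4).

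Of 23 fatty acid oxidation genes 22 were higher in Ex, with a median Log2FC of 0.15. Cpt1b, which brings fatty acids into the mitochondrion, lay at 202 to 360 CPM in Sed (median 250.1) and 241 to 392 CPM in Ex (median 296), and its Log2FC was 0.21 ± 0.15. Fatty acid uptake and lipid droplet genes were higher in 16 of 20 (median 0.06), in 13 of 20 without Sed replicate 5 (median 0.05), and with a median of 0.02 without Ex replicate 4. Gpam, which starts the synthesis of triglycerides, lay at 24.4 to 50.9 CPM in Sed and 32.5 to 101 CPM in Ex (Log2FC 0.58 ± 0.28), with Ex replicate 4 highest. Lpl, which frees fatty acids from circulating triglycerides, lay at 72.2 to 383 CPM and 86.9 to 553 CPM (Log2FC 0.53 ± 0.46). Without Ex replicate 4 Gpam was at 0.24, Lpl at 0.23 and Cpt1b at 0.12.

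The oxidative lists followed individual animals more than groups. Ex replicate 1 and Sed replicate 5 had the lowest fatty acid oxidation means of the 12 rats, at 6.19 and 6.23 log2 CPM, and Ex replicate 4 the highest at 7.48 log2 CPM. Ex replicate 1 was also the lowest and Ex replicate 4 the highest rat for the slow-fiber list. With the slow-fiber mean of each rat as a covariate, the median Log2FC of fatty acid oxidation was -0.05 with 7 of 23 genes higher, and that of complex I was -0.03 with 5 of 33 higher. In that fit 4 of 23 complex II to IV genes, 2 of 15 ATP synthase genes, 8 of 19 citric acid cycle genes, 0 of 13 mitochondrially encoded genes (median -0.18) and 11 of 20 fatty acid uptake and lipid droplet genes (median 0.0032) were higher. Without Sed replicate 5, the complex I median was 0.0096 with 19 of 33 higher, and the fatty acid oxidation median was 0.06 with 20 of 23 higher. Likewise 17 of 23 complex II to IV genes (median 0.02), 9 of 15 ATP synthase genes (0.0091) and 15 of 19 citric acid cycle genes (0.04) were then higher. Without Ex replicate 4 the medians were -0.02 for fatty acid oxidation, 0.02 for complex II to IV, 0.0051 for ATP synthase and 0.03 for the citric acid cycle.

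Of the carbohydrate lists, glucose uptake and glycogen was even, while glycolysis and the regulators of pyruvate dehydrogenase had most genes slightly higher in Ex. In the glucose uptake and glycogen list 11 of 22 genes were higher (median -0.0045), and 7 of 22 without Sed replicate 5 (median -0.03). Gys1, muscle glycogen synthase, was the gene with an unadjusted p under 0.05. It lay at 252 to 366 CPM in Sed (median 324) and 316 to 461 CPM in Ex (median 394), with a Log2FC of 0.27 ± 0.12. Slc2a4, the insulin-responsive glucose transporter, lay at 299.8 to 552 CPM and 387 to 570 CPM, and its Log2FC of 0.08 ± 0.15 was -0.02 without Sed replicate 5. Hk2, which phosphorylates glucose and is induced by acute exercise, had a Log2FC of -0.10 ± 0.15. Glycolysis and lactate genes were higher in 18 of 19 (median 0.05), and in 9 of 19 without Sed replicate 5 (median -0.0037). Aldoc, the aldolase isoform best known from brain, had the smallest p-value of that list (Log2FC 0.51 ± 0.21). Kinases and phosphatases that set pyruvate dehydrogenase activity were higher in 8 of 9 genes (median 0.09), and in 6 of 9 without Sed replicate 5 (median 0.03). Pdk4, the kinase that spares glucose during fasting and exercise, spread over 35.3 to 641 CPM in Sed and 28.7 to 449 CPM in Ex, and its Log2FC was -0.37 ± 0.83. Pdp2, an opposing phosphatase, had a Log2FC of 0.34 ± 0.26, and of 0.12 without Ex replicate 3.

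Among contractile genes, 8 of 9 slow-fiber genes were higher in Ex with a median Log2FC of 0.95, the largest of any list and with the largest error (median standard error 0.90). The list named 13 genes, but Myh7, Myl2, Tnnt1 and Ankrd2 were not in the table. The slow-fiber mean used as a covariate above also lacked them. Tpm3, slow tropomyosin, lay between 12.7 and 527 CPM in Sed (median 175) and between 19.9 and 1558 CPM in Ex (median 497). Both groups held rats at the low and rats at the high end, and its Log2FC was 1.41 ± 0.96. Atp2a2, the calcium pump of slow fibers, lay at 699 to 1882 CPM and 931 to 4105 CPM (Log2FC 0.68 ± 0.35). Fast-fiber genes were higher in 6 of 13 (median -0.03) and calcium handling genes in 10 of 23 (median -0.03). Without Ex replicate 4 the slow-fiber median was 0.47, Tpm3 was at 0.86 and Atp2a2 at 0.31.

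Vessel, blood and iron genes gave no call. Capillary endothelium genes were higher in 12 of 17 (median 0.04), but in 7 of 17 without Sed replicate 5 (median -0.0055). Vwf, von Willebrand factor, lay at 22.6 to 33.2 CPM in Sed (median 26.4) and 26.7 to 45.7 CPM in Ex (median 34.7), with a Log2FC of 0.35 ± 0.14. Angiogenic and hypoxia genes were higher in 12 of 17 (median 0.16), and in 11 of 17 without that rat (median 0.05). Vegfa, the main angiogenic factor of exercised muscle, spread over 168 to 432 CPM in Sed and 180 to 513 CPM in Ex (Log2FC 0.16 ± 0.27), and its Log2FC was 0.03 without Sed replicate 5 and 0.01 without Ex replicate 3. Egln3, an oxygen-sensing prolyl hydroxylase, lay at 96.8 to 163 CPM in Sed (median 126) and 62.0 to 120 CPM in Ex (median 91.6), with a Log2FC of -0.51 ± 0.16 and an unadjusted edgeR p of 0.00627. The 3 erythroid genes tested were higher in Ex (median 0.47). Hba-a1, an alpha globin, lay at 42.05 to 49.8 CPM in 5 Sed rats but at 19.3 CPM in Sed replicate 5, and at 37.8 to 87.4 CPM in Ex (Log2FC 0.52 ± 0.24, and 0.37 without that rat). Globin genes are near-identical copies, so reads may be shared between them. Iron and heme genes were higher in 11 of 17 (median 0.03), and Tfrc, the transferrin receptor, lay at 158 to 238 CPM in Sed and 95.2 to 471 CPM in Ex (Log2FC 0.49 ± 0.30, and 0.27 without Ex replicate 5).

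Genes that answer to a single bout or to time of day showed large differences between animals of the same group. Immediate-early and NR4A genes were higher in 11 of 15 (median Log2FC 0.16, and 0.02 without Ex replicate 5). Nr4a2, an orphan nuclear receptor, lay at 0.803 to 2.27 CPM in Sed and 0.986 to 11.7 CPM in Ex (Log2FC 1.27 ± 0.60). The Ex median of 1.45 CPM was below the Sed median of 1.86 CPM, 4 of 6 Ex rats lay below the Sed median, and without Ex replicate 5 the Log2FC was 0.52. Nr4a3, its relative and among the strongest responders to acute exercise, lay at 2.58 to 6.91 CPM and 0.742 to 8.36 CPM, with Log2FC -0.06 ± 0.52. Clock genes were higher in 10 of 18 (median 0.02), and in 8 of 18 without Sed replicate 5 (median -0.07). Dbp, a clock output with a steep daily rhythm, spread over 17.1 to 122 CPM in Sed and 20.0 to 124 CPM in Ex. Bmal1, which peaks at the opposite time, spread from 3.02 to 19.8 CPM and from 1.29 to 16.1 CPM. The Log2FC of Dbp was 0.20 ± 0.55 and that of Bmal1 -0.60 ± 0.57, which were 0.05 and -0.31 without Sed replicate 5. Cry2, a clock repressor, was the clock gene with an unadjusted p under 0.05 (Log2FC 0.21 ± 0.09). Glucocorticoid-responsive genes were higher in 9 of 16 (median 0.04), and in 6 of 16 without that rat (median -0.02).

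Growth signals and matrix genes also gave no call. Insulin and IGF signaling genes were higher in 10 of 25 (median -0.03), and Igfbp3, an IGF-binding protein, lay at 5.78 to 9.69 CPM in Sed (median 8.33) and 8.93 to 11.9 CPM in Ex (median 10.3), with a Log2FC of 0.37 ± 0.14. Genes for exercise-linked secreted factors were higher in 10 of 13 (median 0.10). Mstn, myostatin, which restrains muscle growth, lay at 27.3 to 43.8 CPM in Sed and 9.53 to 85.0 CPM in Ex (Log2FC 0.09 ± 0.40). Myogenic and satellite cell genes were lower in 12 of 18 (median -0.06). Vcam1, an adhesion molecule of satellite cells and vessels, had a Log2FC of 0.52 ± 0.18. Myog had one of -1.46 ± 0.53, and of -0.65 without Sed replicate 5. Extracellular matrix genes were higher in 27 of 32 (median 0.23), but without Ex replicate 6 the median was -0.02. P4ha1, a collagen prolyl hydroxylase, was the matrix gene with an unadjusted p under 0.05. It was lower in Ex, with 42.1 to 61.6 CPM in Sed (median 54.4) and 23.9 to 47.7 CPM in Ex (median 39.8), and a Log2FC of -0.45 ± 0.15. Denervation and neuromuscular junction genes were lower in 11 of 18 (median -0.05), and in 7 of 18 without Sed replicate 5 (median 0.02). Gadd45a had a Log2FC of -1.29 ± 0.53, and Runx1 one of -1.13 ± 0.62. Without that rat they were -0.49 and -0.10, and Musk, Chrna1, Ncam1 and Hdac4 moved from -0.79, -0.80, -0.55 and -0.43 to -0.15, 0.39, 0.01 and -0.07.

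Interferon and antigen presentation genes were higher in 21 of 22 (median 0.23). Stat2 and Irf9, which form the transcription factor of the type I interferon response, had Log2FC values of 0.24 ± 0.10 and 0.30 ± 0.13, and Irf9 lay at 5.50 to 8.86 CPM in Sed and 7.67 to 12.6 CPM in Ex. Ex replicate 6 had the highest list mean of the 12 rats, at 4.15 log2 CPM, and without it the median was 0.13, while without Sed replicate 1 it was 0.37. Antioxidant genes and targets of NRF2 were higher in 9 of 24 (median -0.02). Keap1, the inhibitor of NRF2, and Sod1, the cytosolic superoxide dismutase, had Log2FC values of -0.21 ± 0.08 and -0.17 ± 0.07, and -0.16 and -0.14 without Sed replicate 5.

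Markers of other cells in the tissue were also mostly higher in Ex, and none passed the adjustment. All 13 macrophage markers were higher in Ex (median 0.28), with a summed level of 28.8 to 199 CPM in Sed and 48.2 to 257 CPM in Ex. Cd14 had the smallest p-value among them (Log2FC 0.50 ± 0.38, and 0.24 without Ex replicate 6). The macrophage median was 0.03 without Ex replicate 6 and 0.65 without Sed replicate 1. All 9 fibroblast markers were higher (median 0.22, 0.05 without Ex replicate 6 and 0.09 without Sed replicate 5), with a summed level from 480.5 to 2266 CPM and from 814 to 2841 CPM, and Col1a1, type I collagen, had a Log2FC of 0.64 ± 0.61, and of 0.21 without Ex replicate 6. All 5 Schwann cell and nerve markers tested were higher (median 0.55), with Ex replicate 1 highest. Pmp22, a myelin protein, lay at 15.8 to 49.5 CPM in Sed and 17.4 to 107 CPM in Ex (Log2FC 0.58 ± 0.44), and the list median without Ex replicate 1 was 0.07. Of 5 adipocyte markers 4 were higher (median 0.53), and of 9 smooth muscle and pericyte markers 7 were higher (median 0.15), among them Myh11, smooth muscle myosin (Log2FC 0.67 ± 0.29, and 0.32 without Ex replicate 1). The T and B cell list had 1 gene in the table (Log2FC 0.32), since 9 of its 10 genes were not analysed here, and Mbp, Pecam1 and Plin1 were likewise not analysed. For 9 skeletal muscle fiber markers, 4 were higher (median -0.0043). The part of these other cells in the interferon and matrix values was not tested. For all lists the Sed and Ex ranges of the rat means overlapped.

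**Figure D5:**
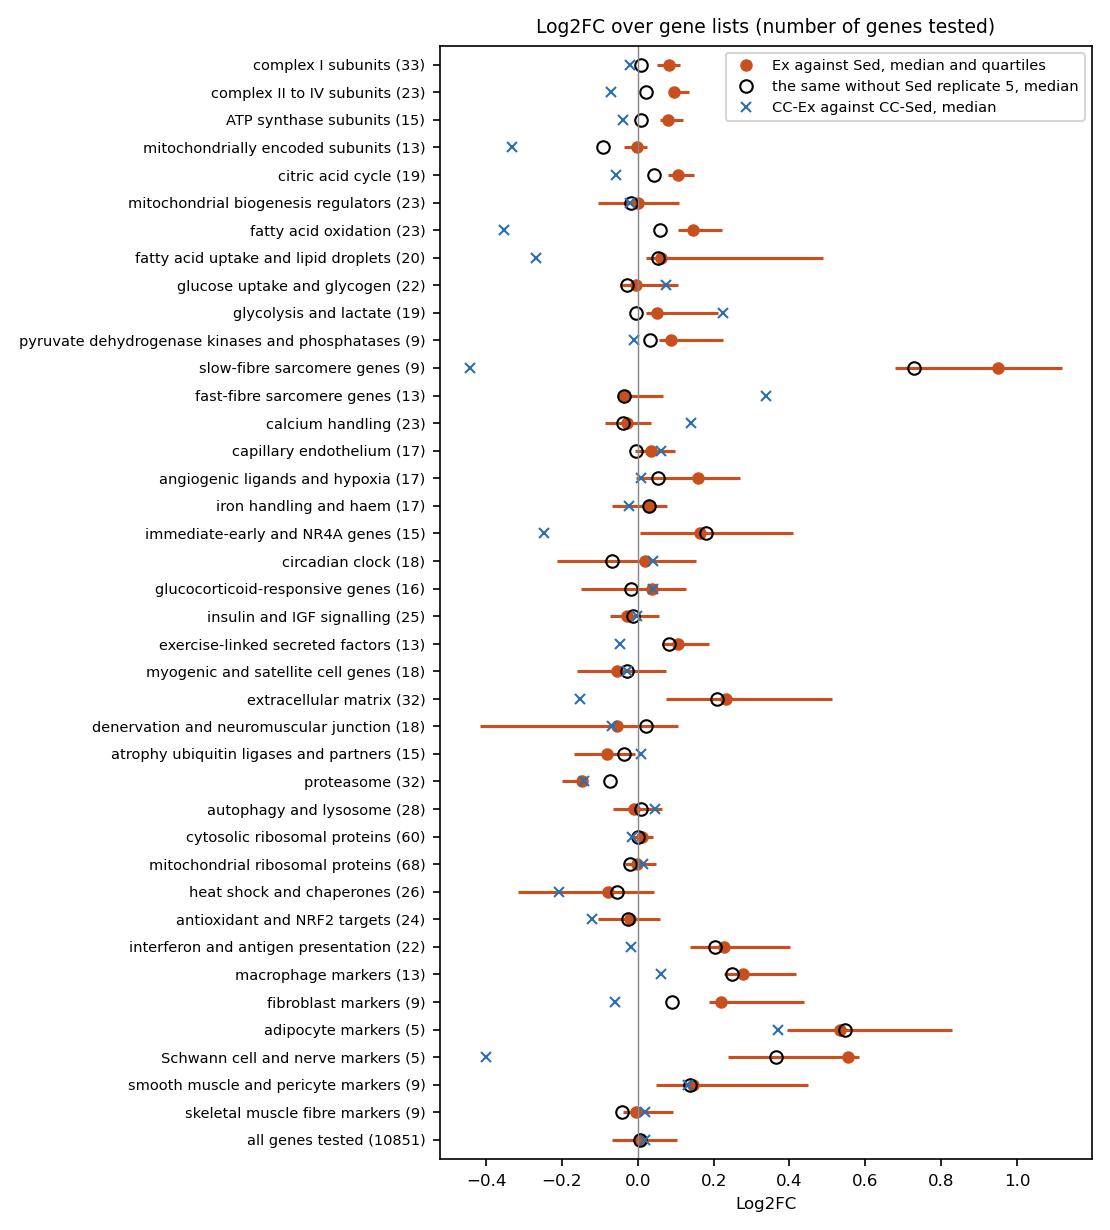
Median Log2FC over the genes of each list with at least 5 genes, with the number of genes tested in brackets; orange points and bars are the median and quartiles for Ex against Sed, open circles the median without Sed replicate 5, and blue crosses the median for CC-Ex against CC-Sed in the monocrotaline rats. Most medians lie within 0.2 of zero, the slow-fiber list reaches 0.95, and the proteasome list is at -0.15 in healthy and -0.14 in monocrotaline rats.

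Training in the monocrotaline rats, measured in other animals, gave a second look at the same genes. The edgeR test called 0 genes there, with 107 at an unadjusted p under 0.05, and the animals varied more, as the median biological coefficient of variation was 0.264 against 0.153 in the healthy rats. The Log2FC had the same sign in both settings for 5316 genes, 49.0% of those tested. Of the 15 genes higher in Ex 8 had the same sign in the monocrotaline rats, and of the 15 lower genes 4 did. Met was at -0.27 there. Asb5 had the smallest p-value of the 30 in those rats, with a Log2FC of -0.65 ± 0.33 that did not pass the adjustment.

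The lists differed in how far the signs were shared. Proteasome genes were lower in 31 of 32 (median Log2FC -0.14) and chaperone genes in 24 of 26 (median -0.21) in CC-Ex against CC-Sed, beside 44.2% of all genes lower and 55.8% higher. Hsp90aa1 was at -0.77 ± 0.35, Dnaja1 at -0.49 ± 0.29 and Hspa8 at -0.22 ± 0.21. Of the proteasome, Psma1 was at -0.19 ± 0.34 and Psmc2 at -0.17 ± 0.29. The lists were not refitted with a monocrotaline rat left out. Members of a list can vary together, so the counts of shared signs are a description. Fatty acid oxidation genes were lower in CC-Ex in 22 of 23 (median -0.35), and slow-fiber genes in 8 of 9 (median -0.44), the opposite sign to the healthy rats. The 13 mitochondrially encoded subunits were all lower in CC-Ex (median -0.33). Matrix genes were lower in 26 of 32 (median -0.15), and interferon genes were even, with 11 of 22 higher (median -0.02).

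The difference between the 2 training effects was tested gene by gene in a model of all 24 rats. The edgeR interaction called 0 of 10851 genes, with 154 at an unadjusted p under 0.05 (1.42%), so no gene was shown to respond differently in healthy and monocrotaline rats. Of the fatty acid oxidation list 4 of 23 genes were among the 154, and of the proteasome and chaperone lists 0 were. Nr4a3 had a Log2FC of -3.01 in CC-Ex against CC-Sed, beside -0.06 in the healthy rats, and its interaction did not pass the adjustment (edgeR unadjusted p = 0.00734).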

How the data were processed

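Total RNA of the medial gastrocnemius was made into stranded poly-A libraries and sequenced in pairs. The authors trimmed the reads with Trim Galore, quantified them with Salmon on the Ensembl mRatBN7.2 transcriptome and collapsed them to genes with tximport. Values are the estimated counts per gene as deposited, in whole numbers and without scaling. Groups were taken from the sample labels. The 12 healthy rats were fitted in R 4.3.3 with edgeR 4.0.16 (TMM scaling, filtering by expression, which removed 0 genes, quasi-likelihood F test, Benjamini-Hochberg adjustment). The monocrotaline rats were fitted in the same way, and the interaction in all 24 rats. DESeq2 1.42.0, limma-voom 3.58.1, other scalings, filters, covariates, a replicate block and leaving out each rat were alternatives. Standard errors were taken from the F statistic. Log2 CPM used a prior count of 2. The models were tested on simulated data.

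Named genes were the 15 with the smallest p-value in each direction, the members of each list with the smallest p-values, and 14 exercise or clock genes whatever their values. The result for 1 gene is not reported here. The members, the 41 gene lists and this rule were chosen with earlier results of these data known, so lists are described by counts and medians without a test. Of 897 list entries, 786 were matched to the table. Replicate numbers did not mark shared animals, and same-numbered Sed and Ex rats did not deviate together. No 2 libraries were duplicates. Promoter sequences were read from RefSeq, assembly GRCr8, and the count table used mRatBN7.2. Libraries came from separate animals, so p-values measure the spread between animals.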

Additional observations from a re-analysis of the deposited data

Results flagged for a closer look

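The values below lay far from the other 5 rats of their group, by a gap that exceeds the Dixon limit for 6 values. For independent, normally distributed values, chance marks about 1 in 20 groups. Here 25 of 180 gene groups and 8 of 82 list groups were marked, and 10 of the gene marks were in Sed replicate 5. Many of these genes were picked by their values in the same rats, and they vary together. The marked shares therefore cannot be set against that rate. No cause of these values was tested.

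Sed replicate 5 was above the other Sed rats for Myog (165 CPM), Gadd45a (107 CPM), Runx1 (31.6 CPM), Chrna1 (52.8 CPM), Musk (11.2 CPM), Hdac4 (50.3 CPM), Dnajb2 (99.4 CPM), Psma1 (92.8 CPM) and Sod1 (128 CPM). It was below them for Hba-a1 (19.3 CPM), for the erythroid mean (3.92 log2 CPM) and for the glycolysis and lactate mean (7.33 log2 CPM). Sed replicate 6 was above the others for Maob (1.83 CPM) and Nr4a3 (6.91 CPM). Sed replicate 2 was above them for Nectin2 (5.79 CPM), Sed replicate 3 for Arhgap28 (9.11 CPM), and Sed replicate 4 for Pcp4l1 (2.03 CPM) and the mean of the mitochondrial biogenesis regulators (4.88 log2 CPM). Sed replicate 1 was above them for the interferon mean (3.46 log2 CPM).

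Among the trained rats, Ex replicate 1 was highest for Slco2a1 (5.15 CPM), Trim63 (291 CPM), Myh11 (126 CPM) and Pmp22 (107 CPM), and lowest for the slow-fiber mean (3.99 log2 CPM). Ex replicate 4 was highest for Atp2a2 (4105 CPM) and Gpam (101 CPM), and lowest for the fast-fiber mean (12.2 log2 CPM) and the calcium handling mean (7.82 log2 CPM). Ex replicate 5 was highest for Met (20.7 CPM) and for the immediate-early mean (4.78 log2 CPM). Ex replicate 6 was highest for Cnn2 (5.34 CPM), Pld1 (5.34 CPM) and Ncam1 (18.4 CPM).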

How the results depend on the processing

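The count of 0 genes held under every alternative run. The count at an unadjusted p under 0.05, 379 in the fit to 12 rats, was 118 when all 24 rats shared one estimate of the spread, and 264 (without Sed replicate 5) to 645 (without Sed replicate 1) when 1 rat was left out. Genes whose groups did not overlap numbered 17, but 8 when scaled by library totals alone, and 22 to 53 with 1 rat left out, where fewer values must separate. Replicate numbers did not pair the rats. Correlations of same-numbered rats ran from -0.23 to 0.22, and the replicate block gave 0 calls and 384 genes at an unadjusted p under 0.05. Some Log2FC changed sign, and the cause was not tested. Most of these were small, but Chrna1 (-0.80), Pmp22 (0.58) and Ncam1 (-0.55) were above 0.5 in size in the fit to 12 rats. With the block Pdk4 was at 0.12, Mstn at -0.22 and Chrna1 at 0.057. With limma-voom Pdk4 was at 0.11, Mstn at -0.26, Nr4a3 at 0.047, Dbp at -0.031 and Chrna1 at 0.12. With library number as a covariate Mstn was at -0.019 and Nr4a3 at 0.016, and with the slow-fiber mean Vegfa was at -0.068. Leaving out 1 rat gave Chrna1 from -1.05 to 0.39, Dbp from -0.056 to 0.54, Mstn from -0.37 to 0.29, Mt-nd2 from -0.22 to 0.029, Ncam1 from -0.97 to 0.012, Nr4a3 from -0.52 to 0.21, Pdk4 from -0.86 to 0.24, Pmp22 from -0.024 to 0.87 and Slc2a4 from -0.020 to 0.14. Scalings moved the median of all genes by less than 0.02. Genes below 10 counts in any rat were not analysed, so responses that start from or end near zero were out of reach, and with 6 rats per group the interval of the Log2FC reached beyond 0.5 in size for 28.6% of genes.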
